A study of Mus musculus with 6 samples.

Results

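Transcripts of 10 genes of the growth hormone and STAT5 axis were compared between mouse livers with and without a guide RNA against Prdx2. The genes were chosen by symbol and comprise the growth hormone receptor (Ghr), the transcription factor Stat5b, the circulating growth factor Igf1 and its carrier subunit Igfals, the feedback inhibitors Socs2 and Cish, and the male-biased liver genes Hsd3b5, Elovl3, Mup20 and Cyp2d9. All 10 symbols were found among the 52459 genes of the count table, and all 10 passed the filter on low counts that left 17032 genes for testing. The livers came from 6 male mice that carried Alb-Cre and a Cre-dependent Cas9, so that Cas9 was expressed in hepatocytes, the cells in which the albumin promoter is active. At 4 to 5 weeks of age, 3 mice received AAV8-U6-sgCtrl, whose guide RNA targets GFP (sgCtrl, mice 5.1, 7.1 and 7.2), and 3 received AAV8-U6-sgPrdx2 (mice 1.1, 1.3 and 3.2). All 6 mice, controls included, received DEN (diethylnitrosamine, a chemical carcinogen of the liver) at 100 mg/kg 3 weeks after the vector, were put on a choline-deficient, amino acid-defined high-fat diet (CDAHFD) after 1 more week, stayed on it for 6 months and were 8 months old when the livers were taken. Prdx2 can be edited only in hepatocytes that the vector reaches, and the share of edited cells was not measured here. No liver without DEN and diet was analysed here, and each value is therefore a comparison between 2 sets of injured livers.

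Growth hormone binds its receptor on hepatocytes, the receptor activates the kinase JAK2, and JAK2 phosphorylates STAT5B, which enters the nucleus and switches on target genes. One branch of targets is endocrine: IGF-1 circulates in a complex with an IGF-binding protein and the acid-labile subunit, the product of Igfals. Another is inhibitory: CIS (Cish) and SOCS2 bind the receptor complex and end the signal. A further branch is sex-biased in rodents, because males secrete growth hormone in pulses and females more continuously. Hsd3b5, Elovl3, Mup20 and Cyp2d9 are typical genes of the male liver, and low growth hormone signaling is known to lower them.

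Dimers of STAT5 recognize the palindrome TTCNNNGAA, and the promoters of the members were searched for these letters, to show which of them hold the motif near a transcription start. The windows, from RefSeq on GRCm38.p6, run from 250 bases before to 50 bases after each start. Windows of 7 members matched by symbol (11 windows). Socs2, Elovl3 and Mup20 did not match. The RefSeq starts need not be those of the GENCODE coordinates given below for each gene. The only Hsd3b5 window, with its start at chr3:98645534, lies outside the Hsd3b5 locus given below. The only Cyp2d9 window, with its start at chr15:82452377, lies inside the Cyp2d9 locus and away from its first base. For these 2 genes the lack of a match covers these windows only. The pattern is its own reverse complement, so that 1 search covers both strands, and sites were allowed to overlap. It was found in 3 of the 11 windows, from 2 of the 7 genes, Cish and Igfals. Of all 32851 windows in the reference, 2726 (8.30%) held it, and 150 (0.457%) held it at least 2 times. These are the 3 stretches with a match, with the motif in capitals. Those of Igfals stop where an annotated exon begins, and that of Cish, which lies in an annotated exon, is limited to 30 bases.
Cish, chr9:107296654-107296683, plus strand: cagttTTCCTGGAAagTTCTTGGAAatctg
Igfals, chr17:24877594-24877655, plus strand: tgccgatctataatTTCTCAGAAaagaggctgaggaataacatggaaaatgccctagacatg
Igfals, chr17:24877981-24878214, plus strand: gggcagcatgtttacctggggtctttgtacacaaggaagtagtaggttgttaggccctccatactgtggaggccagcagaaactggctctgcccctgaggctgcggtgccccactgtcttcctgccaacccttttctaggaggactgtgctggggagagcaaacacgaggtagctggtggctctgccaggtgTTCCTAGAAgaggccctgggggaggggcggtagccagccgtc
The Cish window holds a tandem of 2 matches, which start at positions 1 and 12 counted from the RefSeq transcription start. In Igfals, 1 match starts at position -236 and the other, in the window of a later start, at position -58. A match of these letters is a description of the sequence and does not show that STAT5 binds there.

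Total counts ran from 37462102 to 46753629 (sgCtrl) and from 40454021 to 56865293 (sgPrdx2). At these depths, 3 counts, taken as the smallest number detected, stand for 0.0555 to 0.0921 CPM (counts of a gene scaled to the normalized size of its library), a limit of counting error only. Xist was counted 0 to 9 times and the Y-linked Ddx3y 598 to 1579 times, so that all 6 livers carried the RNA of males. RNA of the targeted gene did not separate the groups. The means of Prdx2 were 119 ± 11.6 (sgCtrl) and 120 ± 26.1 CPM (sgPrdx2, SD over 3 livers each), and because Cas9 edits need not lower an RNA, this does not check the labels. Normalization was by TMM, whose factors ran from 1.12 to 1.17 (sgCtrl) and from 0.805 to 0.951 (sgPrdx2). A list of 17 hepatocyte genes, such as Alb and Ttr, was higher in sgPrdx2 livers at all 17, and 6 passed the test. Of all genes tested, 48.3% had a log2 fold change above 0 and 1.79% were called higher. The summed level of the 17 genes was 96085 to 103860 CPM in sgCtrl and 162002 to 224549 CPM in sgPrdx2 livers. Most of it was Alb, with means of 60214 (sgCtrl) and 117782 CPM (sgPrdx2). The summed level of 7 stellate cell and fibroblast markers was 1226 to 1750 CPM in sgCtrl and 998 to 1051 CPM in sgPrdx2 livers, and that of 6 cholangiocyte markers was 1630 to 1858 CPM and 1217 to 1393 CPM. Most of the cholangiocyte sum was Spp1, with means of 1578 (sgCtrl) and 1150 CPM (sgPrdx2). Krt19, Krt7 and Sox9 overlapped between the groups, and Epcam and Cftr did not. Macrophage markers summed to 2643 to 2858 CPM and 1821 to 2640 CPM, so that the groups almost touched. Most of this sum was Lyz2, with means of 2012 (sgCtrl) and 1602 CPM (sgPrdx2). Lyz2, Cd68, Clec4f, Marco and Vsig4 overlapped between the groups, and Adgre1 and Csf1r did not. The sums of endothelial, lymphocyte and neutrophil markers overlapped. In whole liver, fewer cells of a type and less RNA per cell cannot be told apart, and this holds for every member described here. The first number of the mouse labels is 5 or 7 in sgCtrl and 1 or 3 in sgPrdx2 livers, and what it marks cannot be told apart from the guide.

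All 10 members had a log2 fold change above 0 in sgPrdx2 against sgCtrl livers, as had 48.3% of all genes tested (6 of 10 when livers were scaled to hepatocyte genes and 8 of 10 with library totals only). The median of the members was 0.93 and that of all genes was -0.02. With edgeR's quasi-likelihood test and a Benjamini-Hochberg adjusted p under 0.05 over all genes, 1 member, Igfals, was called higher and none was called lower. The background was 3.33% of all genes called, 1.79% called higher and 1.54% called lower. At an unadjusted p under 0.05, 5 members passed, as did 24.9% of all genes in either direction, and with DESeq2 these 5, Ghr, Igf1, Igfals, Hsd3b5 and Cyp2d9, had an adjusted p under 0.05, where DESeq2 called 7.58% of its genes higher. In the same 5 members the lowest sgPrdx2 liver lay above the highest control. Over all genes the groups did not overlap at 34.2%, with 16.7% higher and 17.5% lower. The remaining 5 members, Stat5b, Socs2, Cish, Elovl3 and Mup20, overlapped between the groups. The livers did not contribute evenly. Of the 6 livers, 5.1 was the lowest at 6 of the 10 members, and 3.2 was the highest at 6. At the 17 hepatocyte genes, 5.1 was likewise the lowest at 11 and 3.2 the highest at 12.

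**Figure D1:**
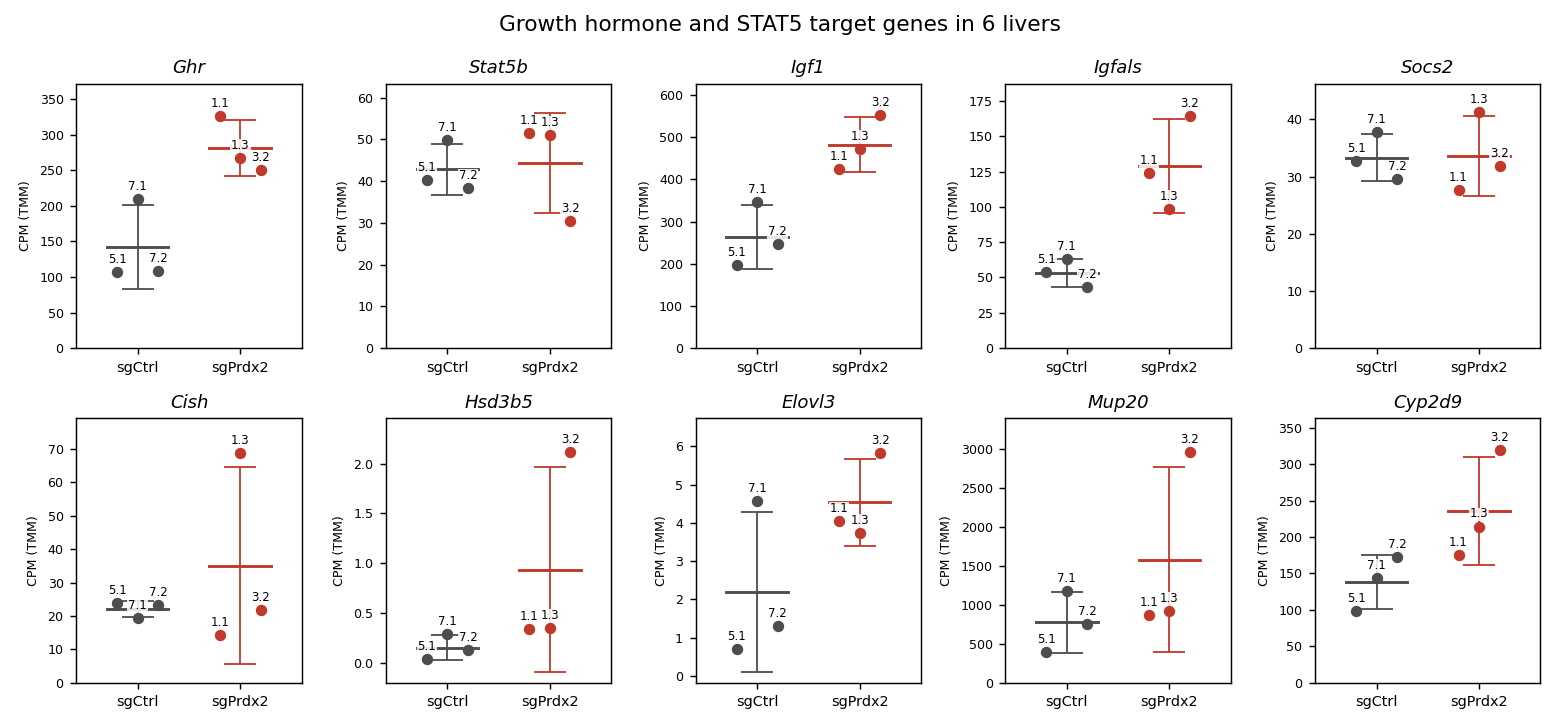
Normalized expression (CPM after TMM, vertical axis from 0 or just below it) of the 10 members in each liver, with the mouse number beside each point, grey for sgCtrl and red for sgPrdx2; the horizontal line is the mean and the bar 1 SD of 3 livers. Ghr, Igf1, Igfals, Hsd3b5 and Cyp2d9 do not overlap between the groups, and liver 3.2 stands above the other sgPrdx2 livers for Hsd3b5 and Mup20.

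The receptor did not pass the adjusted threshold, although every sgPrdx2 liver lay above every control. Ghr, which encodes the growth hormone receptor (chr15:3317760-3583492, minus strand, GRCm38), was at 107, 210 and 109 CPM in sgCtrl livers 5.1, 7.1 and 7.2. In sgPrdx2 livers 1.1, 1.3 and 3.2 it was at 326, 266 and 250 CPM. The lowest sgPrdx2 liver was 3.2, and the highest control, 7.1, stood apart from the other controls. The means were 142 ± 58.9 and 281 ± 39.6 CPM (SD, n = 3), a log2 fold change of 0.99 (standard error 0.28, 95% interval 0.35 to 1.63, edgeR's quasi-likelihood adjusted p = 0.0872). Without liver 7.1 it was 1.38 with an adjusted p of 0.0318, and without the other livers in turn it was 0.82 to 1.08 with adjusted p from 0.0981 to 0.228.

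Stat5b, the STAT that carries the signal in liver (chr11:100780731-100850724, minus strand), did not differ detectably. It was at 40.4, 49.8 and 38.3 CPM in sgCtrl livers 5.1, 7.1 and 7.2 and at 51.6, 51.0 and 30.5 CPM in sgPrdx2 livers 1.1, 1.3 and 3.2. The sgPrdx2 livers spanned the sgCtrl range, with liver 3.2 the lowest of all. The log2 fold change was 0.05 (standard error 0.22, 95% interval -0.45 to 0.55, edgeR's quasi-likelihood adjusted p = 0.899). Of the 50-base stretches of Stat5b transcripts, 11.0% also lie in Stat5a. The sources used here do not give how reads of such stretches were assigned.

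Among 10 genes of the receptor, its kinase, the STATs and their regulators, Ghr and Stat5b included, none passed edgeR's test and 4 had a log2 fold change above 0, with a median of -0.09. At an unadjusted p under 0.05 there were 4 (24.9% of all genes), and DESeq2 called 1 higher, Ghr, and 1 lower, Ptpn1, where it called 7.58% of its genes higher and 5.78% lower. Ghr had the smallest p, followed by the phosphatases Ptpn1 and Ptpn6, which remove phosphate from JAK2 and other signaling proteins. Ptpn1 was at 78.0, 68.0 and 75.9 CPM in the sgCtrl and 52.1, 50.2 and 61.9 CPM in the sgPrdx2 livers. Ptpn6, a phosphatase of blood cells above all, was at 76.9, 70.9 and 82.9 CPM and at 60.5, 59.9 and 56.6 CPM. Neither overlapped between the groups, where 17.5% of all genes lay lower without overlap. Their log2 fold changes were -0.44 and -0.38 (standard errors 0.13 and 0.12, edgeR's quasi-likelihood adjusted p of 0.107 and 0.113). Over the 7 macrophage markers, of which none had a log2 fold change above 0, the median was -0.35, and their part in the value of Ptpn6 was not tested. For Jak2 itself and Stat5a, named after their values were seen, the log2 fold changes were -0.32 and -0.07 (adjusted p of 0.223 and 0.782).

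Both endocrine targets were higher in every sgPrdx2 liver than in every control. Igf1, the growth factor made by the liver under growth hormone (chr10:87858265-87937042, plus strand), was at 198, 346 and 247 CPM in sgCtrl livers 5.1, 7.1 and 7.2. It was at 424, 472 and 552 CPM in sgPrdx2 livers 1.1, 1.3 and 3.2. As with Ghr, liver 7.1 was the highest of the controls and lay below every sgPrdx2 liver. The means were 263 ± 75.3 and 483 ± 64.5 CPM (SD, n = 3), with a log2 fold change of 0.87 (standard error 0.22, 95% interval 0.36 to 1.39, edgeR's quasi-likelihood adjusted p = 0.0709). Without liver 7.1 it was 1.12 with an adjusted p of 0.0449, and the adjusted p lay between 0.105 and 0.207 without any other liver.

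Igfals encodes the acid-labile subunit, which holds IGF-1 in its large complex in blood (chr17:24865997-24882010, plus strand). It was at 53.9, 63.0 and 43.1 CPM in sgCtrl livers 5.1, 7.1 and 7.2, and at 124, 98.2 and 164 CPM in sgPrdx2 livers 1.1, 1.3 and 3.2. The controls lay close together, and the lowest sgPrdx2 liver, 1.3, stood well above the highest of them. Igfals rose from 53.4 ± 9.97 to 129 ± 33.2 CPM (SD, n = 3), a 2.41-fold difference and a log2 fold change of 1.27 (standard error 0.22, 95% interval 0.75 to 1.79, edgeR's quasi-likelihood adjusted p = 0.0394). By p it ranked 204 among all genes. The call was lost without liver 5.1 (adjusted p = 0.121), 7.2 (0.148), 1.1 (0.144) or 1.3 (0.0672), the same 4 fits in which no gene at all was called, while the log2 fold change stayed between 1.07 and 1.45. With CPM taken from library totals alone, Igfals was at 60.7 ± 11.3 and 112 ± 19.4 CPM (SD, n = 3, p = 0.1 by a two-sided exact permutation test, which cannot give a smaller one with 3 livers a group). The Igfals stretches with the STAT5 motif are printed above. The 95% intervals of Igf1 and Igfals overlap.

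Across the 12 genes of the IGF system, Igf1 and Igfals included, edgeR called 1 higher, Igfals, and 1 lower, Igfbp5. Over all genes it called 1.79% higher and 1.54% lower. The median over the 12 was -0.24 on the log2 scale. At an unadjusted p under 0.05 by edgeR there were 6 (24.9% of all genes). DESeq2 called 4 higher and 1 lower, where it called 7.58% of its genes higher and 5.78% lower. Igfbp5 encodes an IGF-binding protein that is made by stromal cells in many tissues. It was at 13.5, 12.8 and 18.1 CPM in sgCtrl livers 5.1, 7.1 and 7.2, and at 8.93, 6.84 and 5.19 CPM in sgPrdx2 livers 1.1, 1.3 and 3.2. Igfbp5 fell by 1.08 on the log2 scale (standard error 0.23, edgeR's quasi-likelihood adjusted p = 0.0491), with no overlap, and the call was lost when any 1 liver was left out (adjusted p from 0.0616 to 0.168) and with RLE normalization (adjusted p = 0.0501). It moved with the stellate cell and fibroblast markers, whose median log2 fold change was -0.63 with 6 of 7 below 0, and their part in it was not tested.

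The other binding proteins, named after their values were seen, split. Igfbp2, an abundant binding protein of hepatocytes, was at 669, 494 and 629 CPM in the sgCtrl and 1037, 1004 and 2120 CPM in the sgPrdx2 livers (log2 fold change 1.22, edgeR's quasi-likelihood adjusted p = 0.0696). Igfbp4 was at 1104, 1001 and 1114 CPM and at 1490, 1559 and 1940 CPM (0.63, adjusted p = 0.0709). Neither overlapped between the groups, where 16.7% of all genes lay higher without overlap, and neither passed the threshold. Igfbp3, the main partner of IGF-1 and the acid-labile subunit in blood, was at 24.0, 17.7 and 19.6 CPM and at 14.7, 19.2 and 14.6 CPM, with overlap (-0.34, adjusted p = 0.260). Of these components of the circulating complex, Igfals was the one that passed the test. Igfbp1, which responds to insulin and fasting, ranged from 86.1 to 290 CPM in sgCtrl and from 32.5 to 182 CPM in sgPrdx2 livers (-0.90, adjusted p = 0.442). The receptor gene Igf1r was at 8.24 to 12.8 CPM in sgCtrl and 6.45 to 8.17 CPM in sgPrdx2 livers (-0.50, adjusted p = 0.175). Igf2r, whose product takes up IGF-2 for degradation, was at 54.0 to 67.9 CPM and at 26.2 to 51.0 CPM (-0.51, edgeR's quasi-likelihood adjusted p = 0.245). Neither receptor gene overlapped between the groups, where 17.5% of all genes lay lower without overlap.

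**Figure D2:**
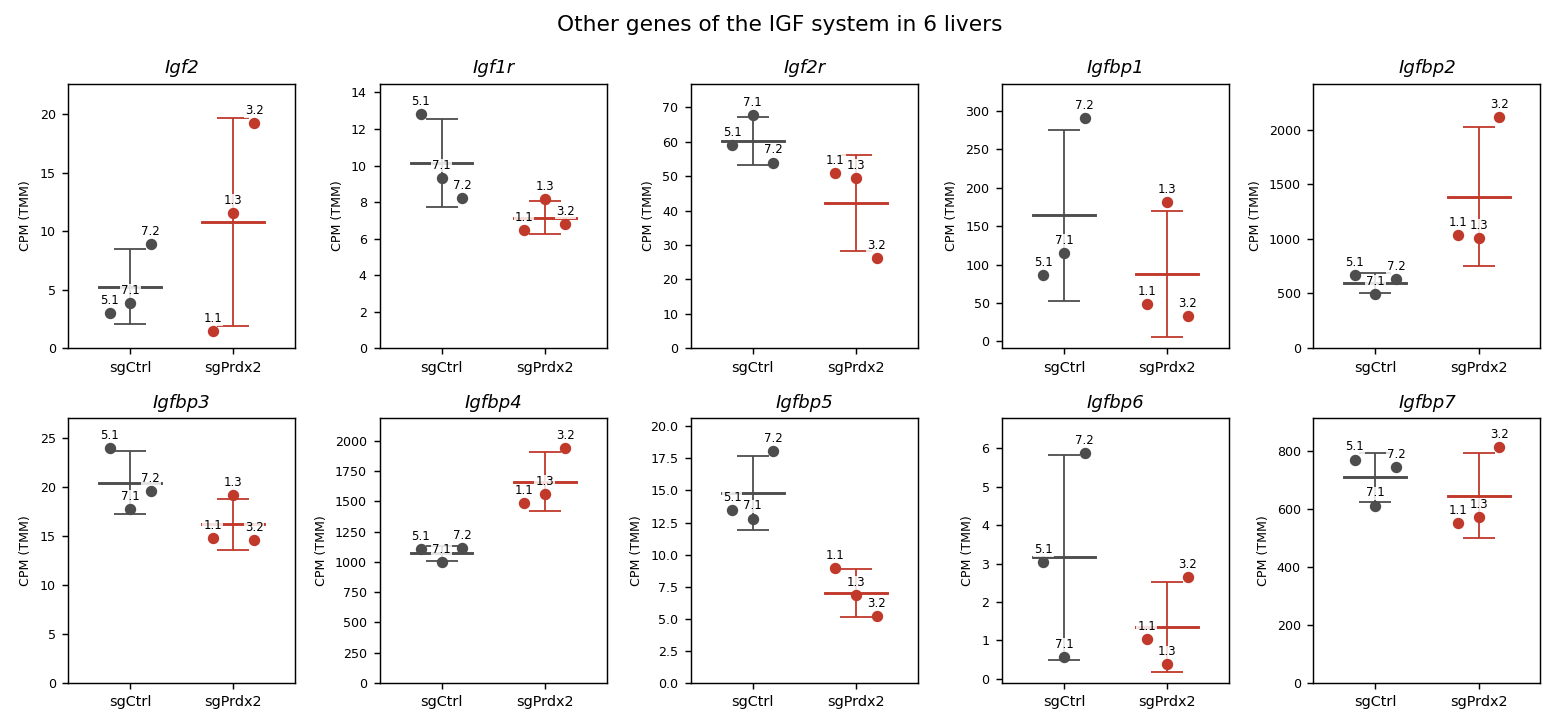
Normalized expression (CPM after TMM, vertical axis) of the other 10 genes of the IGF system in each liver, with the mouse number beside each point, grey for sgCtrl and red for sgPrdx2, the mean as a horizontal line and 1 SD of 3 livers as a bar. Igfbp2 and Igfbp4 are higher and Igfbp5, Igf1r and Igf2r are lower in every sgPrdx2 liver, while Igf2, Igfbp1, Igfbp3, Igfbp6 and Igfbp7 overlap. Of all genes tested, 16.7% were higher and 17.5% lower without overlap.

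The feedback inhibitors showed no difference between the groups beyond the spread of the livers. Socs2, which ubiquitinates the growth hormone receptor complex (chr10:95385362-95417180, minus strand), was at 32.7, 37.7 and 29.6 CPM in sgCtrl livers 5.1, 7.1 and 7.2 and at 27.6, 41.3 and 31.8 CPM in sgPrdx2 livers 1.1, 1.3 and 3.2. The ranges lay over each other. Its log2 fold change was 0.01 (standard error 0.17, 95% interval -0.39 to 0.42, edgeR's quasi-likelihood adjusted p = 0.973). That interval does not reach the log2 fold change of Igf1 or Igfals, but the difference between the genes was not tested.

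Cish encodes CIS, an early STAT5 target that blocks STAT5 docking (chr9:107296026-107302784, plus strand). Its RNA was at 23.9, 19.5 and 23.3 CPM in sgCtrl livers 5.1, 7.1 and 7.2, and at 14.4, 68.8 and 21.9 CPM in sgPrdx2 livers 1.1, 1.3 and 3.2. A single liver, 1.3, stood apart, and the other sgPrdx2 livers were within or below the control range. The log2 fold change of 0.66 (standard error 0.51, 95% interval -0.51 to 1.83, edgeR's quasi-likelihood adjusted p = 0.448) turned to -0.28 (adjusted p = 0.458) without liver 1.3 and was 1.03 without liver 1.1. Cish is the member with the tandem of motifs printed above.

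Over the 8 genes of the CIS and SOCS family, none passed edgeR's test or DESeq2, 1 had an unadjusted p under 0.05 by edgeR (24.9% of all genes), and the median log2 fold change was -0.13. The smallest p belonged to Socs3, Socs5 and Socs4. Socs3, a feedback gene of IL-6 and STAT3 as well as of growth hormone, was at 22.0, 38.4 and 31.5 CPM in the sgCtrl and 38.5, 71.3 and 40.9 CPM in the sgPrdx2 livers. The highest control and the lowest sgPrdx2 liver were almost equal (log2 fold change 0.71, standard error 0.28, edgeR's quasi-likelihood adjusted p = 0.172). Liver 1.3 was the highest liver for Cish, Socs2 and Socs3. Socs5 and Socs4 had log2 fold changes of -0.48 and -0.19 (adjusted p of 0.254 and 0.426).

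The 4 male-biased members had log2 fold changes above 0 with a wide spread between livers, and none passed the adjusted threshold. Hsd3b5, a steroid-converting enzyme of the male liver (chr3:98618634-98630252, minus strand), was barely detected, with 2, 13 and 7 counts in sgCtrl livers 5.1, 7.1 and 7.2 and 15, 19 and 69 counts in sgPrdx2 livers 1.1, 1.3 and 3.2. The count of liver 5.1 is under the 3 counts taken as detected. In CPM these are 0.0457, 0.289 and 0.133, against 0.342, 0.351 and 2.12, so that the groups did not overlap, but liver 3.2 alone was far from the rest. The log2 fold change of 2.51 was the largest of the 10 members and had the largest error (standard error 0.89, 95% interval 0.45 to 4.58, edgeR's quasi-likelihood adjusted p = 0.141). Without liver 3.2 it was 1.15 (adjusted p = 0.295). Of its 50-base stretches, 21.2% also lie in Hsd3b4 and related genes.

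Elovl3, which lengthens saturated fatty acids (chr19:46131897-46135694, plus strand), had 31, 206 and 68 counts in the sgCtrl and 178, 202 and 190 counts in the sgPrdx2 livers. That is 0.708, 4.58 and 1.29 CPM against 4.06, 3.74 and 5.84 CPM. The sgPrdx2 livers were close to each other, and control liver 7.1 lay among them, apart from the other controls. This gave a log2 fold change of 1.05 (standard error 0.60, 95% interval -0.33 to 2.42, edgeR's quasi-likelihood adjusted p = 0.313), and 2.16 with an adjusted p of 0.0403 without liver 7.1.

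Mup20 encodes darcin, a urinary protein of male mice that acts as a pheromone (chr4:62050234-62054158, minus strand). It was at 400, 1183 and 750 CPM in sgCtrl livers 5.1, 7.1 and 7.2, and at 868, 920 and 2956 CPM in sgPrdx2 livers 1.1, 1.3 and 3.2. Control 7.1 was above 2 of the sgPrdx2 livers, and liver 3.2 was above all. Its log2 fold change of 1.02 (standard error 0.55, 95% interval -0.25 to 2.29, edgeR's quasi-likelihood adjusted p = 0.288) was 0.21 without liver 3.2. Transcripts of Mup20 share 50.5% of their 50-base stretches with other Mup genes, so its level is uncertain. Over the 42 Mup genes and pseudogenes with counts, a sum chosen after the values were seen, the family was at 457, 1696 and 926 CPM in the sgCtrl and 1731, 1670 and 4186 CPM in the sgPrdx2 livers, and the family overlapped between the groups as Mup20 did. Mup20 took 87.5%, 69.8% and 81.1% of it in the controls and 50.2%, 55.1% and 70.6% in the sgPrdx2 livers, and most of the remainder was Mup3.

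Cyp2d9, a steroid hydroxylase of the male liver (chr15:82433437-82456845, plus strand), was at 99.1, 144 and 173 CPM in sgCtrl livers 5.1, 7.1 and 7.2. It was at 175, 214 and 319 CPM in sgPrdx2 livers 1.1, 1.3 and 3.2. The groups only just failed to touch, between control 7.2 and liver 1.1. For Cyp2d9 the log2 fold change was 0.77 (standard error 0.27, 95% interval 0.13 to 1.40, edgeR's quasi-likelihood adjusted p = 0.142). Cyp2d9 shares 21.8% of its 50-base stretches with Cyp2d10, Cyp2d12 and other genes nearby.

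The wider list of male-biased liver genes held 26 genes, the 4 members included, of which 24 were tested. Obp2a and Moxd1 had 12 and 8 counts in all livers together and were not. None of the 24 passed the test, with 9 at an unadjusted p under 0.05 by edgeR (24.9% of all genes) and 2 of the list, the members Hsd3b5 and Cyp2d9, called higher by DESeq2 (7.58% of its genes). The log2 fold change was above 0 at 23 of 24, against 48.3% of all genes, Cyp4a12a being the exception at -0.18, and the median was 0.89. Scaled to hepatocyte genes, 13 of 24 were above 0 and the median was 0.09, where the median of all genes was -0.83, and with library totals only 20 of 24 were above 0. At 8 of the 24 genes each sgPrdx2 liver was above each control, against 16.7% of all genes and 16 of the 17 hepatocyte genes. The 3 smallest p belonged to Serpina1e, Mup3 and Hsd3b5. Serpina1e, an alpha-1-antitrypsin gene, was at 36.7, 203 and 52.2 CPM in the sgCtrl and 355, 320 and 891 CPM in the sgPrdx2 livers (log2 fold change 2.42, standard error 0.69, edgeR's quasi-likelihood adjusted p = 0.0911). Mup3 was at 48.4, 474 and 154 CPM and at 825, 711 and 1146 CPM (1.99, standard error 0.69, adjusted p = 0.136). Both show the order of the Hsd3b5 counts among the controls, with 7.1 the highest and 5.1 the lowest.

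That order recurred through the list. Liver 5.1 was the lowest of the 6 at 19 of the 24 genes, and liver 3.2 was the highest at 20. Among the controls alone, 7.1 was the highest at 16 genes and 5.1 the lowest at 20. The same 2 livers stood at the ends of the 17 hepatocyte genes, 5.1 the lowest at 11 and 3.2 the highest at 12. They also had the largest and the smallest TMM factor (1.17 and 0.805), so this order is not particular to male-biased genes. The highest liver exceeded the lowest 7.50-fold at the median male-biased gene, against 3.51-fold at the median member, 2.33-fold at the median hepatocyte gene and 1.78-fold at the median of all genes tested. Within the 3 controls this ratio was 3.76 for the male-biased genes and 1.27 for all genes. The median log2 fold change of the 24 genes was 0.55 without liver 3.2 and 1.41 without liver 7.1.

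Female-biased liver genes, which continuous growth hormone maintains, had no common direction. Of 29 listed, 25 were tested, 11 had a log2 fold change above 0 and 14 below, and the median was -0.04. It was 0.55 without liver 5.1 and -0.35 without liver 7.1. At an unadjusted p under 0.05 by edgeR there were 6 of the 25 (24.9% of all genes). Over all 29, DESeq2 called 2 higher and 1 lower, where it called 7.58% and 5.78% of its genes. By edgeR none was called higher and 1 was called lower (1.54% of all genes). This was Prom1, which encodes a membrane protein also known as a progenitor and duct marker. Prom1 was at 31.5, 26.6 and 29.95 CPM in sgCtrl livers 5.1, 7.1 and 7.2 and at 13.8, 19.2 and 18.8 CPM in sgPrdx2 livers 1.1, 1.3 and 3.2 (log2 fold change -0.76, standard error 0.16, edgeR's quasi-likelihood adjusted p = 0.0471). The call was lost without any 1 liver other than 3.2 (adjusted p from 0.0657 to 0.162) and with length and GC content corrected (-0.64, adjusted p = 0.0689). All 6 cholangiocyte markers had a log2 fold change below 0, with a median of -0.41, and their part in the value of Prom1 was not tested. The spread of the female-biased genes was wide as well, with a median ratio of highest to lowest liver of 6.23. Liver 7.1 was the lowest at 10 of the 25 genes and liver 5.1 the highest at 9. Cyp2a4, a female-biased steroid hydroxylase named after its values were seen, was at 963, 55.6 and 1097 CPM in the controls and 79.8, 235 and 628 CPM in the sgPrdx2 livers (log2 fold change -1.17, adjusted p = 0.497). Its lowest liver was the control with the highest Mup20, 7.1, and its highest was control 7.2. Cux2, a female-biased repressor of male genes named likewise, was at 9.41, 1.29 and 2.13 CPM in the controls and 2.32, 3.79 and 1.63 CPM in the sgPrdx2 livers, and its highest liver was the control with the lowest Mup20, 5.1. Other genes of the list went the other way, and liver 5.1 was the lowest at 5 of the 25. Among these, Ntrk2 was at 14.8, 101 and 40.0 CPM in controls 5.1, 7.1 and 7.2. Sult1e1 was at 8.36, 24.9 and 17.4 CPM in the same controls. Both were named after their values were seen.

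**Figure D3:**
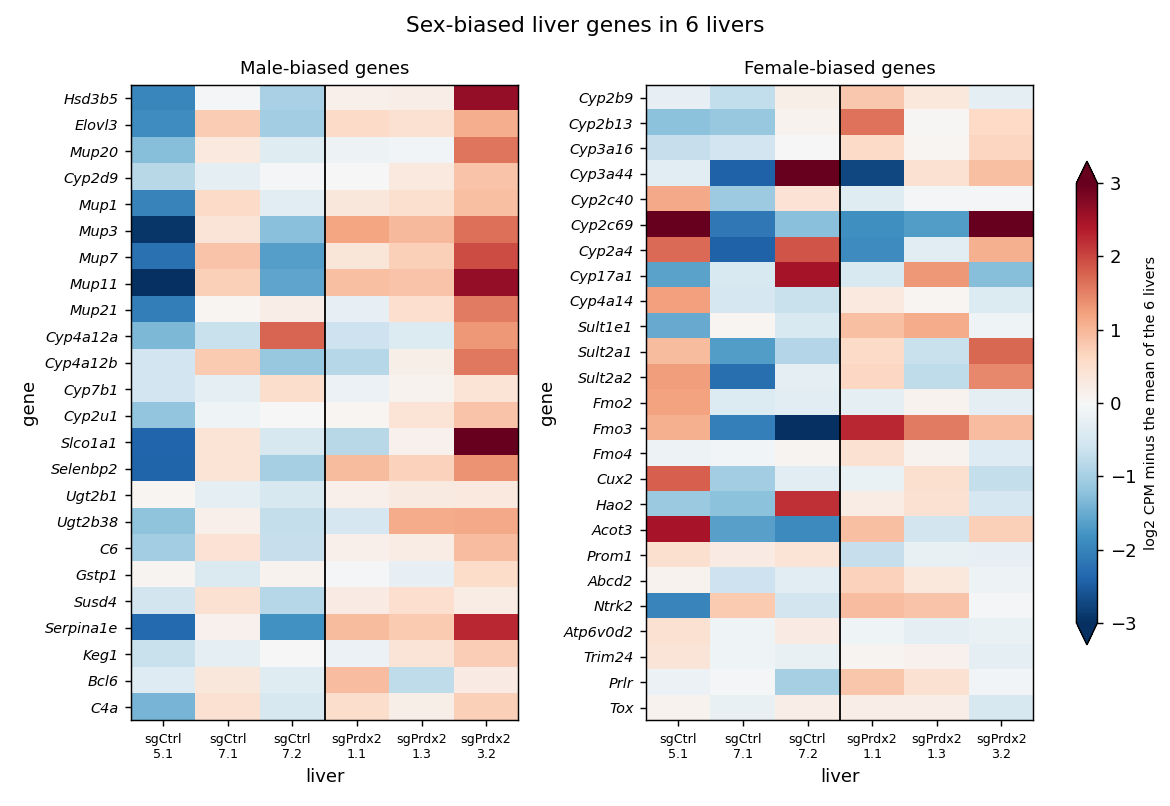
Male-biased (left, 24 genes) and female-biased (right, 25 genes) liver genes in the 6 livers, each square being the log2 CPM of a gene minus its mean over the 6 livers, from blue (below) to red (above), with values past 3 drawn in the end colors and a line between sgCtrl and sgPrdx2. Among male-biased genes, the column of liver 5.1 is blue almost throughout and that of liver 3.2 red, at 19 and 20 of the 24 genes the lowest and the highest liver, while the female-biased genes show no common direction.

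None of the 10 transcription factors that act with or under STAT5 in liver passed edgeR's test, 2 had an unadjusted p under 0.05 (24.9% of all genes), DESeq2 called 1 higher, Cebpa, and their median log2 fold change was 0.10. The smallest p were those of Cebpa, Foxa2 and Hnf4a, all regulators of hepatocyte genes. Cebpa was at 163, 238 and 211 CPM in the sgCtrl and 364, 297 and 312 CPM in the sgPrdx2 livers (log2 fold change 0.67, edgeR's quasi-likelihood adjusted p = 0.0772). Foxa2 and Hnf4a had log2 fold changes of 0.39 and 0.30 (adjusted p of 0.117 and 0.229). Bcl6, a repressor of female-biased genes in the male liver that was named after its values were seen, was at 17.4, 28.9 and 17.6 CPM and at 42.9, 13.4 and 27.1 CPM, with overlap (0.38, adjusted p = 0.572).

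The genes closest to Igf1 over the 6 livers were found by the root mean square difference of mean-centered log2 CPM, among the 9266 other genes that averaged 10 CPM or more. They were Aadac, a lipase of the liver endoplasmic reticulum (0.116), mt-Nd4, a mitochondrially encoded subunit of respiratory complex I (0.122), and Pde9a, a phosphodiesterase of cyclic GMP (0.123). Aadac was at 174, 270 and 194 CPM in the sgCtrl and 371, 327 and 435 CPM in the sgPrdx2 livers. Its order among the controls was the same as that of Igf1. For Hsd3b5 the closest of 9267 genes were Serpina1e (0.582), Mup20 (0.600) and Serpina3k, a protease inhibitor (0.640). The nearest genes thus included a fellow member and another gene of the male-biased list. They were looser matches than those of Igf1, and Mup20, unlike Hsd3b5, overlapped between the groups. These lists of nearest genes are descriptions over 6 livers that share their depth and composition.

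Hepatocyte genes as a class were higher in sgPrdx2 livers, and the members were therefore also set against them. With each liver scaled to the 17 hepatocyte genes, the median over all genes moved from a log2 fold change of -0.02 to -0.83, and 0.364% of genes were called higher and 69.5% lower. On that scale 6 of 10 members were above 0, none was called higher and 2 were called lower. Hsd3b5, the gene of few counts, was the highest at 1.64 (edgeR's quasi-likelihood adjusted p = 0.0776). Igfals was at 0.42 (adjusted p = 0.0854), Ghr at 0.19 (adjusted p = 0.520) and Igf1 at 0.06 (adjusted p = 0.771). Stat5b was at -0.74 (adjusted p = 0.0325) and Socs2 at -0.79 (adjusted p = 0.0142), both at the level of a typical gene on that scale. Relative to the median of all genes, the median of the members was 0.95 under TMM and 0.95 with the hepatocyte scaling. It was 0.94 with library totals only, a scaling added after seeing the data. A change of scaling shifts all genes nearly alike, so these values had to be close and do not test the members.

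In percent of the geometric mean CPM of the 17 hepatocyte genes, Igf1 was at 14.8 ± 3.36 in sgCtrl and 15.4 ± 1.64 in sgPrdx2 livers (SD, n = 3; two-sided exact permutation test, p = 0.8). For Ghr these were 7.94 ± 2.93 and 9.06 ± 1.77 (exact p = 0.7). Differences of Igf1 and Ghr were thus not detectable against hepatocyte genes. Igfals was at 3.39, 3.39 and 2.31 percent in the sgCtrl and 4.00, 3.53 and 4.64 percent in the sgPrdx2 livers, the only member that was higher in every sgPrdx2 liver on this scale (exact p = 0.1, the smallest possible). Socs2 was at 1.89 ± 0.26 and 1.09 ± 0.34 percent and Stat5b at 2.43 ± 0.33 and 1.45 ± 0.52 percent (SD, n = 3), lower in every sgPrdx2 liver at the same smallest p. With the hepatocyte scaling 69.5% of all genes were called lower, so these lower values are not particular to Socs2 and Stat5b. The share of all genes whose groups separate in percent of the hepatocyte genes was not computed.

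**Figure D4:**
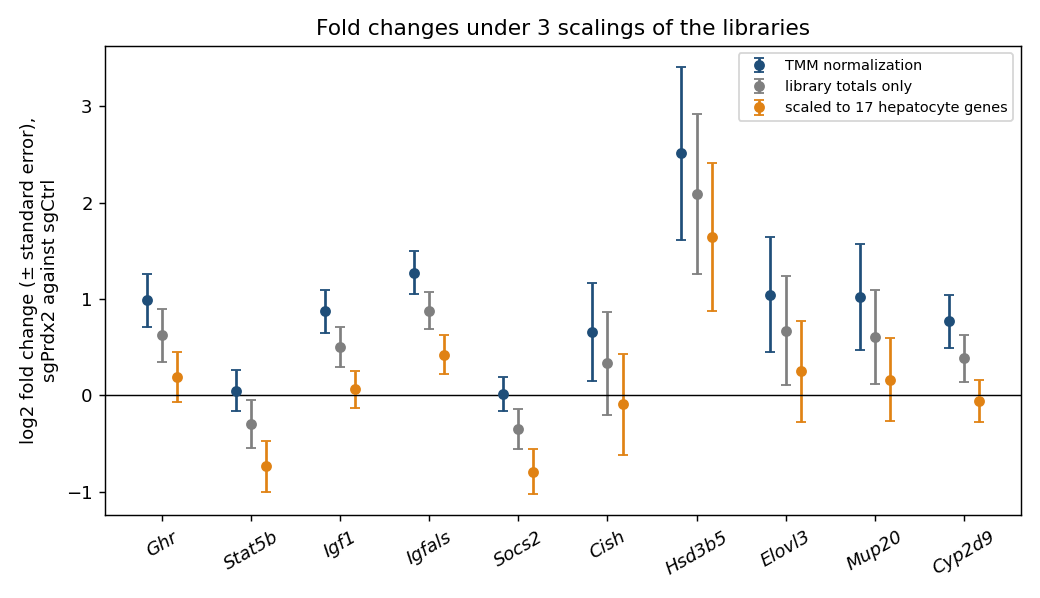
Log2 fold change (sgPrdx2 against sgCtrl, vertical axis) of each member with its standard error under TMM (blue), library totals only (grey) and scaling to 17 hepatocyte genes (orange). All members shift down together with the scaling, Stat5b and Socs2 from near 0 to -0.74 and -0.79, and 6 of 10 remain above 0, with Hsd3b5 at 1.64 and Igfals at 0.42.

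Levels of different genes were compared per length, as CPM per kilobase of the longest annotated transcript (RPKM). In sgCtrl livers Mup20 had the highest mean level of the members, 838 RPKM, followed by Cyp2d9 (81.0), Igf1 (37.4), Ghr (33.9), Igfals (20.3), Stat5b (8.22), Socs2 (7.85), Cish (4.74), Elovl3 (1.17) and Hsd3b5 (0.101). Neighbors such as Igf1 and Ghr, or Stat5b and Socs2, lay closer than the SD over livers. The order was the same in sgPrdx2 livers, where Mup20 was at 1704 RPKM, Igf1 at 68.5, Ghr at 67.3, Igfals at 49.1 and Hsd3b5 at 0.605 RPKM.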

How the data were processed

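RNA-seq of 6 livers was analysed from the gene table the authors deposited, which holds whole-number counts of reads on 52459 genes per liver, without normalization. The submitters' processing notes name HISAT2, HTSeq, DESeq2 and GRCm38, and versions, annotation and strand setting are not given in the sources used here. A second deposited table holds the authors' own comparison (mean, fold change, standard error, statistic and p) and was not used. Groups and mouse numbers were taken from the sample titles. The members and the other gene lists were chosen with earlier results of these data known.

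The test was that of edgeR 4.0.16 (R 4.3.3), with filterByExpr (minimum count 10), TMM, glmQLFit and glmQLFTest on all 6 livers with no covariate, and Benjamini-Hochberg adjustment over 17032 genes, called under 0.05. The biological coefficient of variation came to 0.213. Standard errors are the fold change (log2) over the root of F, and 95% intervals use the moderated degrees of freedom. Single values were compared by two-sided exact permutation tests. Each liver is from a mouse of its own, per the labels. Both fits were first tested on simulated counts in which 200 genes changed. The alternatives tried were upper-quartile and RLE normalization, scaling to 17 hepatocyte genes, DESeq2 1.42.0, 2 other filters, a correction of length and GC content (16572 genes with both, 97.3%), an adjusted p under 0.1, leaving out each liver, and, added after seeing the data, library totals only. Named genes are the 10 members, every called gene of a list or otherwise the 3 with the smallest p, Prdx2, and the 3 genes most like Igf1 and Hsd3b5. Others are said to be chosen after their values were seen. Coordinates, lengths and shared stretches of 50 bases come from GENCODE M21, which need not be the annotation the authors used.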

Additional observations from a re-analysis of the deposited data

How the results depend on the processing

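No paired analysis was possible because the groups share no replicate number. Of 149 values of the 10 members over all alternatives, 136 were above 0. The alternatives use the same livers, and the adjusted p under 0.1 repeats the fold changes of the main fit. These signs are therefore not independent of each other. All genes were called higher at 305 and lower at 262. These counts were 62 and 11836 with the hepatocyte scaling, 1162 and 886 by DESeq2, 644 and 484 without a filter, 612 and 467 with length and GC content corrected, 964 and 803 at an adjusted p under 0.1, and 3041 were lower with library totals only. Leaving out 1 liver gave 0 to 324 higher and 0 to 295 lower, and in the 4 fits without 5.1, 7.2, 1.1 or 1.3, edgeR called 0 genes, with 3068 to 3961 at an unadjusted p under 0.05. Of the members, 1 was called higher, and 0 with the hepatocyte scaling (2 lower), 5 by DESeq2, 3 without a filter (Ghr, Igf1 and Igfals), 3 with length and GC content corrected (the same 3 genes), 3 at an adjusted p under 0.1 (again these 3), and 0 to 4 without 1 liver, 4 being without 7.1. Members called lower numbered 0 without any 1 liver. Of all listed genes, 1 was called higher, and 10 by DESeq2, 7 without a filter, 6 with length and GC content corrected, 7 at an adjusted p under 0.1 and 0 to 7 without 1 liver. Lower were 2, and 1 with RLE, 32 with the hepatocyte scaling, 1 with length and GC content corrected, 7 with library totals only and 0 to 1 without 1 liver. The hepatocyte scaling, which lowers all genes together, turned 9 log2 fold changes to negative calls: Stat5b -0.74, Socs2 -0.79, Sh2b1 -0.71, Cyp7b1 -0.65, Gstp1 -0.68, Fmo4 -0.65, Hnf4a -0.51, Foxa1 -0.58 and Prdx2 -0.82. Depth limits Hsd3b5, with 2 to 69 counts, more than any other member.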

Other observations

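Close relatives of 2 members, chosen after their values were seen, were counted far more often than the members themselves. Hsd3b3, a steroid dehydrogenase of the liver, took 81.6% of the counts on the Hsd3b genes, against 0.305% for Hsd3b5. It was at 69.7, 100.2 and 77.0 CPM in sgCtrl livers 5.1, 7.1 and 7.2 and at 162, 145 and 213 CPM in sgPrdx2 livers 1.1, 1.3 and 3.2, a log2 fold change of 1.07 (edgeR's quasi-likelihood adjusted p = 0.0409). Cyp2d26 took 53.0% of the counts on the Cyp2d genes, against 9.39% for Cyp2d9, and was at 695, 778 and 680 CPM in the sgCtrl and 1430, 1136 and 1671 CPM in the sgPrdx2 livers (log2 fold change 0.98, adjusted p = 0.0409). Neither relative is in the male-biased list, and in both the 3 controls lay closer together than they did for Hsd3b5 or Cyp2d9.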
